A study of Mus musculus with 2 samples.

Results

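Transcripts of striated muscle were examined in RNA of embryonic mouse ureters through 10 genes: the actins Acta1 and Actc1, the myosin genes Myh3, Myh8 and Mylpf, the troponin genes Tnnt1, Tnnt2 and Tnni1, and the myogenic factors Myog and Myod1. They were chosen by name with earlier results of these data known, so the comparisons with all genes below are descriptions. Every probe of the array that carries one of these names was taken. This gave 12 probes of 39429 and 30 spots of 43020, since Myh3 and Myh8 each had 2 probes and the probes of Myog and Myod1 were each spotted 10 times. Of the 10 genes, 9 had a probe well above background in both RNAs on both arrays. Among all 43020 spots, 66% to 69.4% were well above background in a single RNA of 1 array.

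The study hybridised ureter RNA of NMRI mouse embryos at stage E14.5 to 2 two-colour Agilent arrays with exchanged dyes. The Gata2cKO embryos were Tbx18(cre/+);Gata2(fl/fl), with Cre made from a Tbx18 allele, which is active in the mesenchyme around the ureter, and floxed alleles of Gata2, which codes for a DNA-binding factor of the GATA family. The control embryos were Tbx18(+/+);Gata2(fl/?), so they had no Cre, an intact Tbx18 locus and a second Gata2 allele marked with a question mark. Both RNAs of array 1 were female, with Gata2cKO in Alexa Fluor 647 and control in Alexa Fluor 555, and both RNAs of array 2 were male with the dyes the other way round. Sex and dye orientation therefore cannot be told apart. How many embryos gave each RNA is unstated in the labels, and the p-values measure only the spread between these 2 arrays, which may be technical.

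In striated muscle, thin filaments of actin slide along thick filaments of myosin inside the sarcomere, and calcium starts contraction by binding the troponin complex on the thin filament. Skeletal muscle arises from myoblasts under MyoD-family transcription factors, which bind the E-box, a short DNA motif. The wall of the ureter is made of smooth muscle, which forms from mesenchyme around an epithelial tube, the urothelium, and has no sarcomeres. Smooth muscle has actin and myosin isoforms of its own and does not contract through the troponin complex. Tnnt2 and Tnni1 are nevertheless also known in other muscle or in non-muscle cells. A signal of these genes therefore does not by itself identify striated muscle.

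Genes of the labelled tissue gave a signal, as did those of other cell types. All 9 urothelial genes and 18 of 19 smooth muscle genes passed the filter on brightness, as did 25657 of all 39429 probes. The 10 neuron and glia, 7 endothelial and 7 macrophage genes all passed it too. Passing the filter therefore does not identify the tissue. The targeted gene did not check the genotype labels, since Gata2 had log2 ratios of Gata2cKO over control of 0.33 (array 1) and 0.54 (array 2), which averaged 0.44 ± 0.153 (SD, n = 2 arrays; adjusted p = 0.409 by limma). Where its probe lies relative to the deleted part was not determined. The groups are therefore the RNAs labelled Gata2cKO and control. Across all 20506 genes tested, 9 passed an adjusted p of 0.05 upwards, or 0.0439% of genes, and 9 passed it downwards, also 0.0439%. The ratios of the 2 arrays correlated at r = 0.0643 over all genes, at 0.389 over the 15379 dimmer genes and at -0.572 over the brightest 25%. These are descriptions across genes, which share the 2 arrays and are not independent.

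The probes are 60 bases long and 6 of them are shown, taken as coding from general knowledge of these proteins and not from a match to them. Coordinates are on mm9. The letters show how far the probes of the embryonic and perinatal myosins differ. In the second Myh3 probe and the first Myh8 probe, capitals mark the 29 bases that match between them in an alignment of 48 bases (60.4%). The other probes are in lower case throughout.

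Acta1, chr8:126416197-126416256, minus strand: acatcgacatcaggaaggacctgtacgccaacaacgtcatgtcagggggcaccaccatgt

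Myh3, second probe, chr11:66915107-66915166, plus strand: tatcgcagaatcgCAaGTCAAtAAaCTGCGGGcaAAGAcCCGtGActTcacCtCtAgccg

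Myh8, first probe, chr11:67121925-67121984, plus strand: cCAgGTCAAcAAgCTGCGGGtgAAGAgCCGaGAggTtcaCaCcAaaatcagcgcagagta

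Myh8, second probe, chr11:67093475-67093534, plus strand: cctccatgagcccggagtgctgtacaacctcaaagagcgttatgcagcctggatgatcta

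Tnnt2, chr1:137747976-137748288, plus strand: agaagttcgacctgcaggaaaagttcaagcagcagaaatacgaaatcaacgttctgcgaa

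Tnni1, chr1:137705328-137706203, plus strand: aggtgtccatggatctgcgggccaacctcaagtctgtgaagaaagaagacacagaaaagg

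The Tnnt2 and Tnni1 probes cover 313 and 876 bases of chromosome 1 with 60 bases of transcript, so both cross an exon junction. The probes of the other members lie at chr2:113873064-113873123 (Actc1, minus strand), chr11:66915724-66915783 (the first Myh3 probe, plus strand), chr7:134355191-134355250 (Mylpf, plus strand), chr7:4456265-4456324 (Tnnt1, minus strand), chr1:136188874-136188933 (Myog, plus strand) and chr7:53633956-53634015 (Myod1, plus strand).

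By limma, 0 of the 9 genes tested passed the adjusted threshold in either direction, but most gave less signal in Gata2cKO ureters. On both arrays the ratio was below 0 for 8 of 9 members, against 26.2% of all genes tested, and 0 members were above 0 on both, against 27% of all genes. These and the other shares of all genes are not matched for brightness. They include the brightest 25%, whose ratios correlated at -0.572 between the arrays, and of the members tested only Tnnt1 is that bright. With median centring in place of loess 7 members were below 0 on both arrays, against 20.7% of all genes, as Actc1 was at 0.10 on array 1. In the authors' deposited table it was 6 members, against 21.3% of all genes, since Tnnt1 (0.25) and Tnni1 (0.06) were above 0 on array 2 and Myod1 on both. The median of the members' mean log2 ratios was -0.56, against 0.00284 for all genes. Myh3, Myog, Acta1 and Tnnt2 were at least 1.5-fold lower by their means, which makes 4 of 9 members and 0.814% of all genes, and 0 members were that much lower on both arrays, as were 0.439% of all genes. An unadjusted p under 0.05 with a lower level in Gata2cKO was reached by 5 of 9 members, the same 4 and Tnni1, and by 3.41% of all genes. With a trended and robust variance in limma, 3 members passed the adjusted threshold downwards, as did 1.02% of all genes: Acta1 (adjusted p = 0.0103), Tnni1 (0.0235) and Tnnt2 (0.0311). Ureter RNA is a mixture of cell types, so fewer cells of a type and less RNA per cell cannot be told apart.

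**Figure D1:**
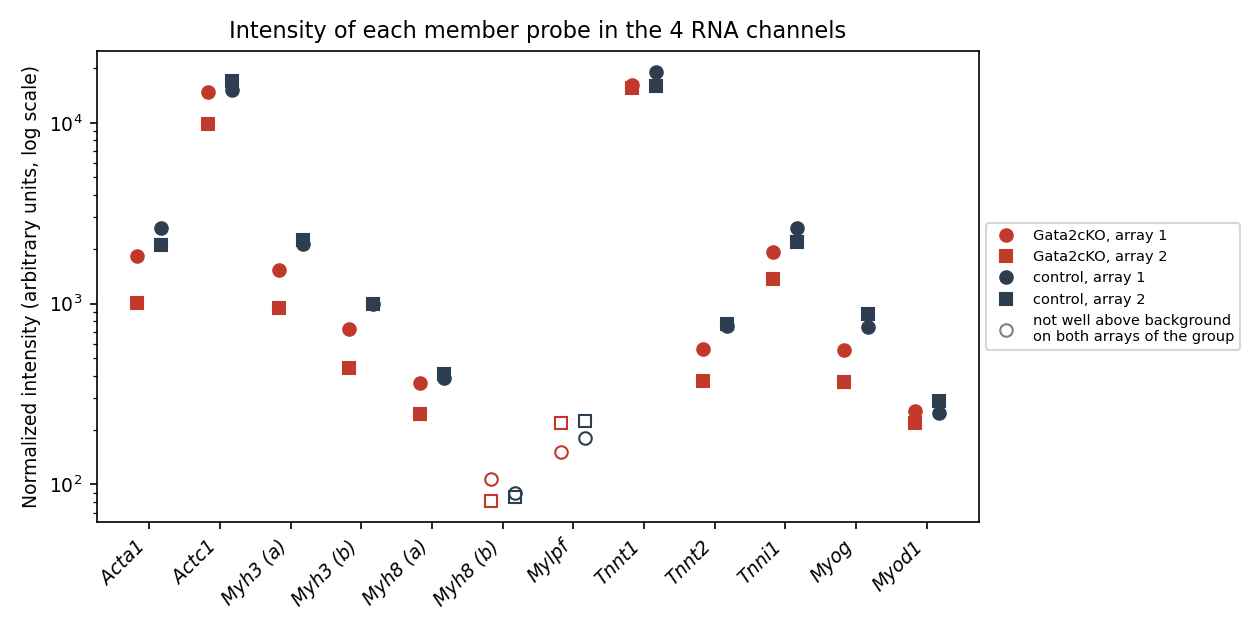
Normalized intensity (arbitrary units, log scale) of each probe of the 10 genes in the 4 RNAs, with Gata2cKO (red) left of control (dark), circles for array 1, squares for array 2 and open symbols for probes not well above background on both arrays. The letters a and b are the first and second probe of a gene. Levels of different probes are not comparable. The 4 symbols of Tnnt1 lie close together, between 15487 and 19041, while the 2 Gata2cKO symbols of Myog lie below both control symbols.

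Among the thin filament genes, Acta1 codes for skeletal muscle alpha-actin. Its normalized intensity (background-corrected, in arbitrary units) was 1823 on array 1 and 1012 on array 2 in Gata2cKO ureters, against 2631 and 2098 in control ureters. Both Gata2cKO values were below both control values. The log2 ratios of -0.53 and -1.05 gave a mean of -0.79 ± 0.370 (SD, n = 2), or 0.578-fold, with an adjusted p of 0.212 by limma. Actc1 codes for cardiac alpha-actin, which embryonic skeletal muscle also makes. It had 14796 and 9788 in Gata2cKO ureters, against 15175 and 17097 in control ureters. On array 1 the RNAs were nearly level and on array 2 Gata2cKO was lower, with log2 ratios of -0.04 and -0.80 (mean -0.42 ± 0.543, SD, n = 2; adjusted p = 0.735 by limma).

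Among the thick filament genes, Myh3 codes for the embryonic myosin heavy chain. Its first probe, the brighter one and the one in the fit, read 1535 and 949 in Gata2cKO ureters, against 2129 and 2238 in control ureters. The log2 ratios were -0.47 and -1.24, with a mean of -0.86 ± 0.542 (SD, n = 2; adjusted p = 0.312 by limma), or 0.553-fold. The second Myh3 probe gave close to the same ratios from its own spot, -0.47 and -1.18. Its intensities were 721 and 443 in Gata2cKO ureters, against 1002 and 1001 in control ureters. For both probes the Gata2cKO and control values did not overlap.

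Myh8 codes for the perinatal myosin heavy chain. Its first probe had 366 and 245 in Gata2cKO ureters, against 387 and 410 in control ureters, and log2 ratios of -0.08 and -0.74 (mean -0.41 ± 0.470, SD, n = 2; adjusted p = 0.705 by limma). The groups did not overlap, but on array 1 Gata2cKO was at 0.946-fold of control. This probe read 4.63 to 9.06 times the local background, and on array 1 1 of the 153 negative control spots was as bright in either RNA. The second Myh8 probe was not well above background in any RNA, and up to 63 of the 153 negative control spots were as bright. Mylpf codes for a regulatory light chain of fast skeletal muscle and was not tested, because it was well above background only on array 2. Its intensities of 151 and 219 in Gata2cKO ureters overlapped those of 181 and 224 in control ureters.

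Among the troponin genes, Tnnt1 codes for slow skeletal troponin T. It had 16224 and 15487 in Gata2cKO ureters, against 19041 and 15897 in control ureters, so the groups overlapped. Its log2 ratios were -0.23 and -0.04, and their mean of -0.13 ± 0.137 (SD, n = 2; adjusted p = 0.885 by limma) was the closest to 0 among the members tested. With Actc1 it was one of the bright members, at percentiles 77.1 and 74.3 of the brightness of all genes.

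Tnnt2 codes for cardiac troponin T, which embryonic skeletal muscle also makes. It had 558 and 375 in Gata2cKO ureters, against 753 and 768 in control ureters, with no overlap. The log2 ratios of -0.43 and -1.03 averaged -0.73 ± 0.425 (SD, n = 2; adjusted p = 0.311 by limma). Tnni1 codes for slow skeletal troponin I, the inhibitory subunit. It had 1923 and 1362 in Gata2cKO ureters, against 2616 and 2182 in control ureters. Its values did not overlap either, and its ratios of -0.44 and -0.68 lay close together (mean -0.56 ± 0.167, SD, n = 2; adjusted p = 0.249 by limma).

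Myog codes for myogenin, the factor that drives myoblasts into differentiation. It averaged 556 and 367 over its 10 spots in Gata2cKO ureters, against 739 and 877 in control ureters. The groups did not overlap, and the log2 ratios were -0.41 and -1.26 (mean -0.83 ± 0.597, SD, n = 2; adjusted p = 0.367 by limma). Spots on an array are technical repeats, and all of them were below 0, from -0.525 to -0.262 on array 1 and from -1.353 to -1.197 on array 2. The SD between spots was 0.081 on array 1 and 0.0537 on array 2, which covers the technical spread within an array and not the spread between RNAs.

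Myod1 codes for MyoD, which commits cells to the skeletal muscle lineage. It had 254 and 219 in Gata2cKO ureters, against 249 and 290 in control ureters, so the groups overlapped. Its log2 ratios had opposite signs, 0.03 and -0.41 (mean -0.19 ± 0.309, SD, n = 2; adjusted p = 0.850 by limma). The spots ran from -0.0633 to 0.140 on array 1 and from -0.550 to -0.312 on array 2. It was the dimmest member tested, at percentile 9.24 of the brightness of all genes. Its signal was 4.75 to 5.51 times the local background, and on array 1 2 of the 153 negative control spots were as bright in either RNA.

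**Figure D2:**
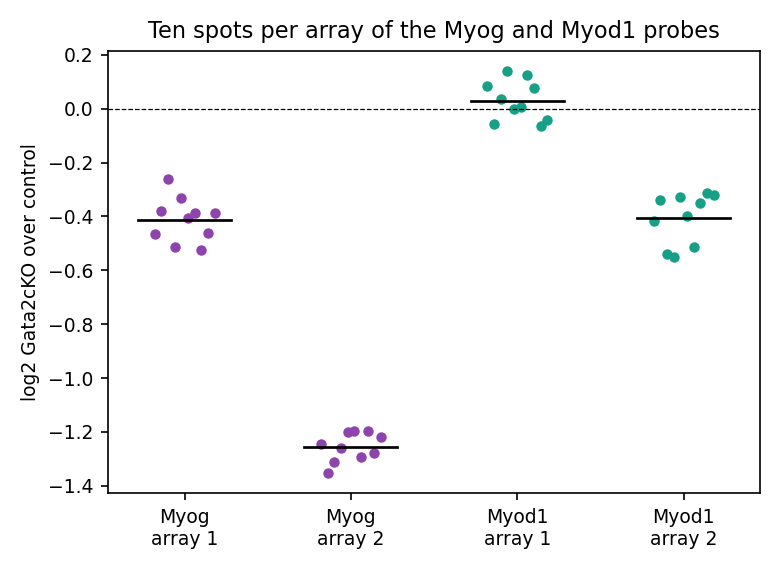
Log2 ratio of Gata2cKO over control (y axis) at each of the 10 spots of the Myog and Myod1 probes on array 1 (female) and array 2 (male), with a dashed line at 0. The Myog spots lie below 0 on both arrays, from -0.525 to -0.262 and from -1.353 to -1.197, while the Myod1 spots straddle 0 on array 1.

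Both Gata2cKO intensities were below both control intensities for 7 of the 9 members tested, against 18.9% of all genes. The exceptions were Tnnt1 and Myod1. The ratio was lower on array 2 than on array 1 for 8 of 9 members, against 48.3% of all genes, and Tnnt1 was the exception. The members' median was -0.41 on array 1 and -0.80 on array 2. Whether sex, dye or the embryos sampled move with this difference was not tested, as 1 array carries each.

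**Figure D3:**
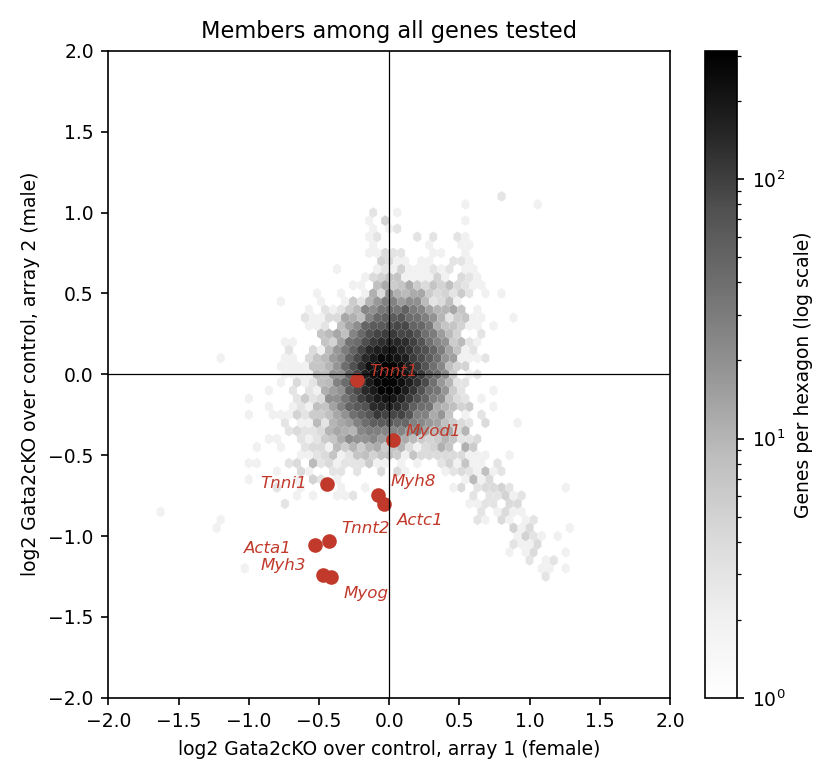
Log2 ratio of Gata2cKO over control on array 1 (female, x axis) and array 2 (male, y axis) for all genes tested (hexagons shaded by the number of genes on a log scale, white at 1 gene) and for the 9 members tested (named points). Genes beyond the axes are not drawn. The members lie left of or near 0 on the x axis and mostly lower on the y axis, around their medians of -0.41 and -0.80.

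The genes outside the members and lists whose pair of array ratios was nearest to the members' medians were Scrg1, Kcnk3, Lhx9, Stfa2l1 and Twist1. Likeness was the Euclidean distance over the 2 arrays, which was 0.0556 for Scrg1 and 0.126 for Twist1. The order rests on 2 values per gene.

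Promoters of 300 bases, from 250 before to 50 after the RefSeq start, were found for 9 of the 10 genes in 11 windows (assembly GRCm38.p6, not Myod1). They are given because the actin promoters hold the CArG box, the site of serum response factor in muscle genes, and the Myog promoter holds E-boxes. Motifs were searched on both strands: CANNTG for the E-box, CAGCTG, which is one of its forms, GATAA for the core bound by GATA factors, and the CArG box. An E-box stood in all 11 windows and in 72.3% of all 32851 promoters. CAGCTG stood in 5 windows of 4 genes, against 16.3% of all promoters, and GATAA in 2 (Tnnt2 and Myog), against 25.4%. Both Tnni1 windows hold the same CAGCTG site, as they overlap. The CArG box stood in 2, Acta1 and Actc1, against 1.63% of all promoters. Its first base is 73 bases before the start in Acta1 and 47 in Actc1. In the 3 sequences capitals mark the CArG box of Acta1 and Actc1 and the E-boxes of Myog, which begin 138 and 12 bases before the start.

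Acta1, chr8:123894726-123895025, minus strand: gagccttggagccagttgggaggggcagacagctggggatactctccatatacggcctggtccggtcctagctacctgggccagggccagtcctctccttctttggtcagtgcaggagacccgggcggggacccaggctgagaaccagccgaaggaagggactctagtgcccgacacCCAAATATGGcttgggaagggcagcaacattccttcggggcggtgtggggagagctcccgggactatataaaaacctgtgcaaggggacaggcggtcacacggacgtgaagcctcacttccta

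Actc1, chr2:114052826-114053125, minus strand: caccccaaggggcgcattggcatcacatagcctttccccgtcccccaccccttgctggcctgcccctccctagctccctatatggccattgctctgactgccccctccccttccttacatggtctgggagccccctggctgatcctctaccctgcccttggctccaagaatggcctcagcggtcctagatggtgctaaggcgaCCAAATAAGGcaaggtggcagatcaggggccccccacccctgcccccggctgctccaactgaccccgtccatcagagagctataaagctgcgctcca

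Myog, chr1:134289754-134290053, plus strand: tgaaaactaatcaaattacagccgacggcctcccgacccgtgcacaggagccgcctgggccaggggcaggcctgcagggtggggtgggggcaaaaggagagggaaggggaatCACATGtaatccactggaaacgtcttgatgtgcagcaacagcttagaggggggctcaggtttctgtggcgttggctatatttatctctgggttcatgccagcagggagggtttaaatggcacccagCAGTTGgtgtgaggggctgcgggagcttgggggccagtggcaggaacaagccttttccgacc

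Other genes of the sarcomere and muscle fibre were mostly dim. Of 44 such genes, 31 passed the filter. On both arrays 20 of them were lower in Gata2cKO and 1 was higher, against 26.2% and 27% of all genes. Their median was -0.19, against 0.00284 for all genes. None passed the adjusted threshold. Myl1, an essential light chain of fast muscle, had log2 ratios of -0.58 and -1.03 (mean -0.80 ± 0.318, SD, n = 2; adjusted p = 0.197 by limma). Mybph, a myosin-binding protein, had -0.50 and -0.88 (mean -0.69, but -0.057 in the authors' deposited table). The adult myosin heavy chains Myh1, Myh2 and Myh4 and myoglobin (Mb) were not well above background in any RNA, and Ckm, muscle creatine kinase, was so only on 1 array in each.

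Of 20 other myogenic regulators, myoblast and endplate genes, 14 were tested, with a median of -0.09. On both arrays 7 were lower and 3 higher, against 26.2% and 27% of all genes. Myf5 and Pax7, which mark muscle progenitors, were not well above background in any RNA. Megf10, a receptor of muscle progenitors that other cells also make, was higher, at 0.79 and 1.09 (mean 0.94 ± 0.213, SD, n = 2; adjusted p = 0.0943 by limma). Vgll2, a cofactor in muscle, was at -0.32 and -1.07 (mean -0.70), but its mean in the authors' deposited table was 0.40. Of 13 genes in the cardiac list, 8 were tested, with a median of -0.13. On both arrays 4 were lower and 1 higher, beside the same shares of all genes. Besides regulators and natriuretic peptides, this list holds heart muscle proteins, some of which the sarcomere list also holds. Hand2 and Hand1, which are also expressed outside the heart, had the lowest means, -1.34 and -1.02. In the authors' deposited table their means were -0.70 and -0.098. The natriuretic peptide genes Nppa and Nppb were not well above background in any RNA.

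Smooth muscle genes belong to the main muscle of the ureter wall. Of 18 tested, 11 were lower on both arrays and 1 was higher, against 26.2% and 27% of all genes, with a median of -0.10. The means were widely spread, from -1.13 to 0.37. At least 1.5-fold lower by the mean were 5 of 18, against 0.814% of all genes and 4 of 9 members. Smooth muscle myosin Myh11 and gamma-2 actin Actg2 were at -1.13 each, with adjusted p of 0.0509 and 0.0532 by limma. Partners of the sarcomere proteins that other cells also make had 3 of 10 genes lower and 3 higher on both arrays, near the shares of all genes (26.2% and 27%), with a median of 0.05. The 3 lower genes were Tnnt2 and Tnni1, both described above, and Tnnc1, cardiac troponin C, which the sarcomere list also holds, at -0.48 and -0.81.

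Markers of other cells in or near the ureter differed in direction from list to list. Among all genes, 26.2% were lower and 27% higher on both arrays. Neuron and glia genes had a median of -0.91, with 9 of 10 lower on both arrays, and Prph, an intermediate filament of peripheral neurons, fell, at -1.38 and -1.32 (mean -1.35 ± 0.0465, SD, n = 2; adjusted p = 0.0380 by limma). All 7 macrophage genes were lower on both arrays (median -0.34, C1qa at -0.59, C1qc at -0.44). Of the 9 urothelial genes 5 were higher and 0 lower (median 0.21, Upk3a at 0.51, Upk1b at 0.33). The 7 endothelial genes had a median of -0.00117, with Plvap at -0.31 and Tek at -0.22, and genes of skin, cartilage and kidney had a median of -0.016 over 7 tested, with Six2 at 0.66 and Col2a1 at -0.51. In the authors' deposited table the means of Six2 (-0.25), Upk1b (-0.015) and Plvap (0.016) had the other sign. The part of these cell types in the members' ratios was not tested.

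**Figure D4:**
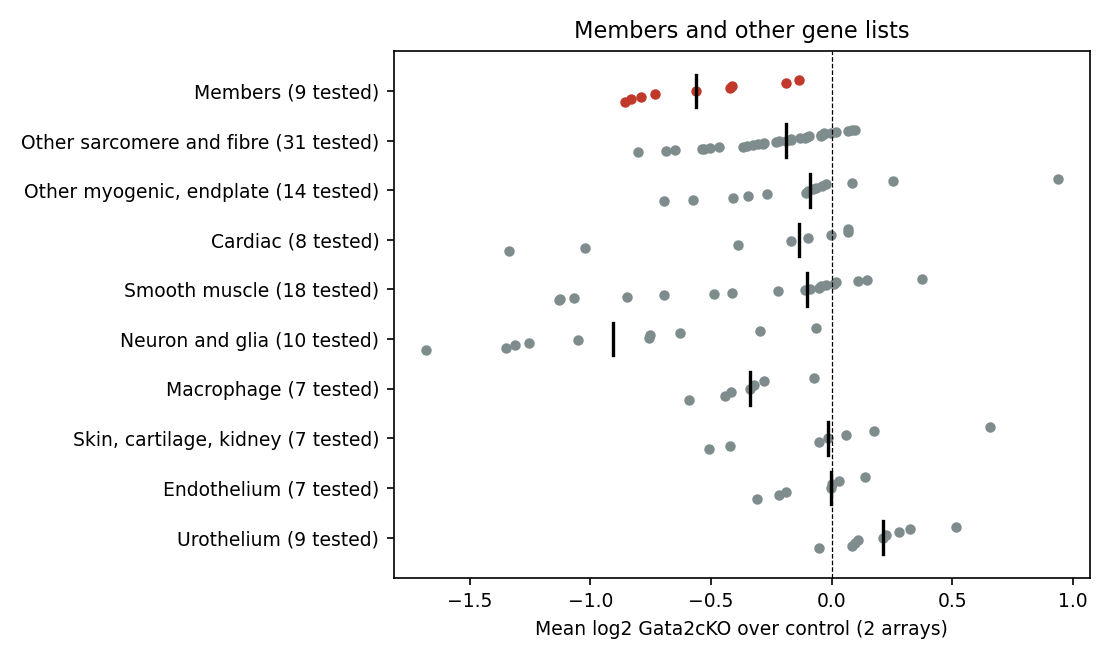
Mean log2 ratio of Gata2cKO over control over the 2 arrays (x axis) for each tested gene of the members (red) and of 9 other lists (grey, rows; the partner list is not drawn), with a bar at each list's median and a dashed line at 0. The members' median is -0.56, below those of the sarcomere list (-0.19) and the smooth muscle list (-0.10) and above that of the neuron and glia list (-0.91). The smooth muscle means run from -1.13 to 0.37, and 5 of 18 are at least 1.5-fold lower, as are 4 of 9 members.

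The authors' deposited table gives a signed fold for each probe and array, with its scale and centring unstated. It was read as Gata2cKO over control because it correlated positively with the scanner ratios so turned, at 0.498 on array 1 and 0.423 on array 2 over 25657 probes. The 2 deposited columns correlated with each other at -0.037. In the authors' deposited table Tnnt2 is at -7.28 and -7.16 fold, or -2.86 and -2.84 on the log2 scale. Only 0.0156% of probes that passed the filter have a mean at least that large, and the scanner signals gave -0.43 and -1.03. Acta1 is at log2 values of -1.35 and -1.35 in the authors' deposited table and Actc1 at -1.09 and -1.41, both lower than by the scanner signals. Myod1 is above 0 in the authors' deposited table, at 0.48 and 0.22, and Myh3 is nearer to 0, at -0.18 and -0.36 for its first probe. The cause of these differences was not tested.

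**Figure D5:**
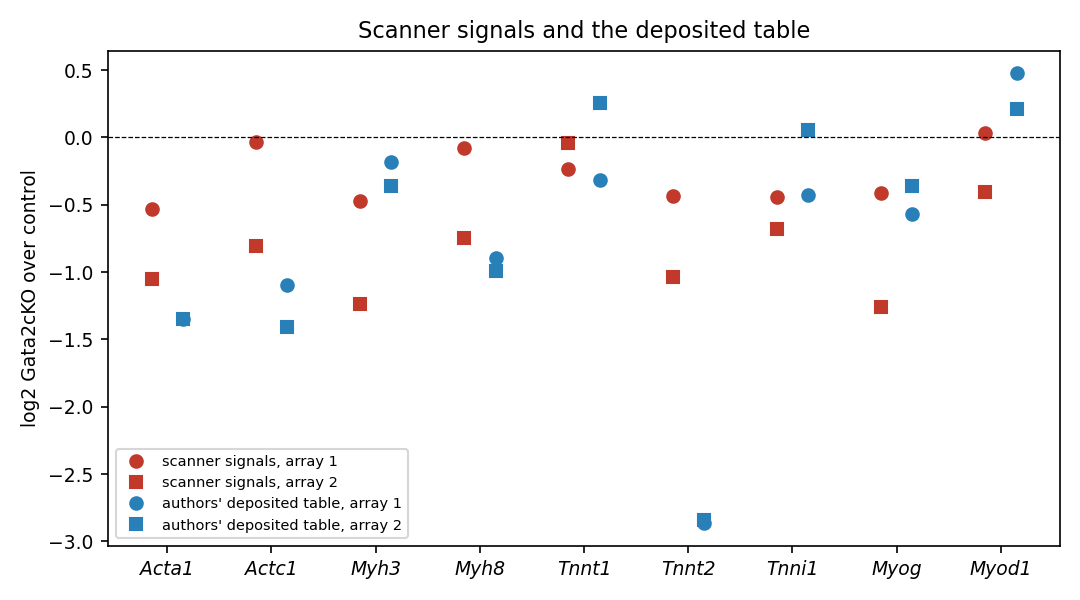
Log2 ratio of Gata2cKO over control (y axis) on each array for the 9 members tested, from the scanner signals and from the authors' deposited table, with a dashed line at 0. Tnnt2 stands furthest apart, at -2.86 and -2.84 in the deposited table and -0.43 and -1.03 from the scanner signals.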

How the data were processed

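The authors scanned arrays of design 026655 with Agilent Feature Extraction 10.7.3.1, per the file headers and the submitters' processing notes, with probe coordinates on mm9. Deposited spot and local background signals are intensity values on a linear scale without normalization. Deposited log10 ratios compare red with green signals after the software's own background subtraction and dye normalization, per the file headers. The authors' deposited value table is a score, a signed fold per probe made by steps not given in the sources used here, with a median of 1 in both columns.

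Signals were corrected by normexp (offset 50) and normalized by loess (span 0.3), with control spots and outlier-flagged spots (255 on array 1, 178 on array 2) at weight 0. The sign of array 2 was turned to give Gata2cKO over control throughout, and repeated spots were averaged per probe. Intensities per RNA are after loess and Aquantile. Probes well above background on both arrays in either group's channel were kept (25657), the brightest for each gene (20506 genes). RefSeq named 26412 probes and 13017 kept the name in the file. Log2 ratios were tested against 0, two-sided, with limma 3.58.1 (lmFit, eBayes; R 4.3.3) and Benjamini-Hochberg adjustment over all genes. There was 1 residual degree of freedom, and the prior added 4.68. With 2 arrays their number limits the precision. No spot was saturated (0 on both arrays).

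The functions were tested on simulated data for this comparison, in 3 draws of 20506 genes, where the test called 4.67% of genes with a 1.5-fold change, 64% of genes with a 2-fold change and 96.7% of genes with a 3-fold change. The simulated noise was normal, independent between the arrays and drawn from the variance prior of the fit. In the real data the brightest 25% of genes correlated at -0.572 between the arrays, so these shares need not hold there.

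The 10 genes and the lists were chosen with earlier results of these data known. Named genes are the members, Gata2, Tbx18, from each list at most 4 genes that passed the test or, with none, the 2 largest ratios of the same sign on both arrays, and the 5 genes nearest to the members' medians. List genes below background were named outside this rule, after values were seen. Tbx18, whose Cre allele only Gata2cKO carries, had log2 ratios of 0.65 and 0.15 (adjusted p = 0.660 by limma). The rule allowed a probe sequence only after a match to the protein, which was not made here. The 6 probes shown were taken as coding from general knowledge of these proteins, after values were seen. Promoters are RefSeq's, assembly GRCm38.p6. Alternatives were another background correction, offset, normalization, filter, probe summary and variance model, the deposited table, and each array alone. Plots used matplotlib 3.10.9 (Python 3.11.15, pandas 2.3.3).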

Additional observations from a re-analysis of the deposited data

Results flagged for a closer look

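Myod1 had log2 ratios of Gata2cKO over control of opposite sign on the arrays, 0.0301 on the female array and -0.4066 on the male array. The difference was not tested, since each sex has 1 array, and sex cannot be told apart from the dye orientation.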

How the results depend on the processing

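The members' median stayed below 0 under all alternatives, from -0.5847 (scanner software's processed signals) to -0.464 (deposited table) with both arrays, and from -0.8047 to -0.4116 with each array alone. Of the 9 members tested, 8 kept a negative mean ratio under every alternative. The exception was Myod1, at 0.3462 in the authors' deposited table and 0.0301 without replicate 2 (-0.4066 without replicate 1). Members lower on both arrays numbered 8, against 7 with median centring, 6 in the deposited table and 9 with no filter. The count of members past the adjusted threshold downwards was 0 except with a trended and robust variance, where it was 3, by limma: Acta1 (adjusted p = 0.0103), Tnni1 (0.0235) and Tnnt2 (0.0311). Across alternatives the adjusted p of these genes reached 1.

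Over all genes, the counts past the threshold were 9 higher and 9 lower. They were 66 and 99 with processed signals, 18 and 36 with no filter, 167 and 209 with a trended and robust variance, and 0 and 0 by limma with median centring or the deposited table, where 492 and 972 genes had an unadjusted p under 0.05, against 1470. The lower count was also 29 with offset 10, 22 with the stricter filter and 14 with the mean of a gene's probes. The cause of these shifts was not tested. List medians moved by more than their SD in 14 cases. Among them, in the authors' deposited table, the neuron and glia median was -0.57 and the urothelial median -0.0149. No paired analysis was possible because none is left to add: the ratio within each array, tested against 0, already pairs 1 Gata2cKO RNA with 1 control RNA. An array alone gives values with no test. Depth is read as signal over background, which limits Myod1, Mylpf and both Myh8 probes.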

Other observations

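Some bright actin and myosin genes of non-muscle cells had ratios of opposite sign on the arrays. Others did not, as the myosin heavy chains Myh9 (0.16 and 0.17) and Myh10 (0.06 and 0.19) were above 0 on both. Actb, cytoplasmic beta-actin, was at 0.75 on array 1 and -0.57 on array 2, Actg1, cytoplasmic gamma-actin, at 0.63 and -0.47, and Myl6, a myosin light chain of smooth muscle and non-muscle cells, at 0.46 and -0.67. Acta2, smooth muscle alpha-actin, had the same sign on both, -0.66 and -1.03. Further sarcomere genes at lower values on both arrays were Ttn, the giant spring protein titin (mean -0.54), Actn2, the Z-disc protein alpha-actinin (mean -0.51, but 0.47 in the authors' deposited table), and Myl4, an embryonic myosin light chain (mean -0.47). These genes were named after their values were seen, and none passed the adjusted threshold by limma.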
